A study of Arabidopsis thaliana with 18 samples.

Results

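Expansins, xyloglucan endotransglucosylase/hydrolases (XTH), cellulose synthase-like enzymes (CSL), family 9 glycoside hydrolases (GH9) and TRICHOME BIREFRINGENCE-LIKE proteins (TBL) were followed in salt-stressed Arabidopsis leaves. Members were taken by symbol: a probe set annotated to 1 gene whose symbol starts with EXPA, EXPB, EXLA, EXLB, XTH, CSLA to CSLG, GH9 or TBL. This gave 72 of the 13513 probe sets annotated to 1 gene, 1 for each of 72 genes: 18 expansins, 9 XTH, 8 CSL, 15 GH9 and 22 TBL.

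RNA from leaves was hybridised to 18 Affymetrix arrays, 3 for each of 6 groups. Every plant was 2 weeks old and spent 24 hours in 150 mM NaCl first, the controls included, so as grouped here no group shows leaves without salt. Plants were then given the ethyl acetate sub-fraction of the brown alga Ascophyllum nodosum (EAA), the methanol extract of the alga (MEA), or 0.1% aqueous methanol (the salt reference), and were sampled on day 1 or day 5. The comparisons ask how each extract and the passage of 5 days bear on transcript levels. The 6 reference arrays carry conflicting labels, NaCl in the source name and EAA in the title and description. Their titles name EAA without NaCl, while those of the EAA and MEA groups add NaCl. The reference arrays are grouped by the source name. Each comparison with the reference depends on that choice, as does the statement that no group lacked salt. Titles name biological replicates without saying whether plantings were separate, so p-values measure the spread between these samples.

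The wall of a growing plant cell is a network of cellulose held in xyloglucan, mannan, xylan and pectin. Expansins let these polymers slip without cutting them, XTH enzymes cut and rejoin xyloglucan chains, and GH9 enzymes cleave beta-1,4-glucan chains. CSL enzymes make the backbones of hemicelluloses in the Golgi, CSLA those of mannans and CSLC that of xyloglucan, and most TBL proteins studied so far add acetyl groups to wall polysaccharides. In leaves these families serve cell expansion as well as the later strengthening and remodelling of the wall.

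Many members gave too little signal for a test. Probe sets were tested if they averaged at least 4.01 on the log2 scale across all arrays, a limit that the dimmest 40% of the 22746 probe sets other than controls did not reach. Of the 72 members 36 reached it: 10 expansins, 2 XTH, 6 CSL, 4 GH9 and 14 TBL. The filter removes members that were low throughout and can keep one through a single group where it was high, so counts over these 36 are descriptions and do not stand for all 72. EXLA2, at a mean of 4.08, lay just inside and EXPB2, at 3.96, just outside.

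The 36 untested members included most of the XTH and GH9 genes. They were EXLA3, EXPA7, EXPA18, EXPA20, EXPA21, EXPA24, EXPB2 and EXPB5 among the expansins, and XTH16, XTH18, XTH20, XTH21, XTH26, XTH29 and XTH33. The CSL genes CSLA03 and CSLC12 were also untested, as were GH9A4, GH9B5, GH9B6, GH9B11, GH9B12, GH9B13, GH9B16, GH9B17, GH9B18, GH9C1 and GH9C3. The untested TBL genes were TBL15, TBL19, TBL20, TBL21, TBL30, TBL34, TBL42 and TBL43. On all 18 arrays 30 of the 36 stayed under 4.01. EXPA7 and EXPA18, expansins of root hairs, were among those 30, at 2.92 to 3.53 and 3.26 to 3.95. The exceptions were EXPB2 on 6 arrays, TBL43 on 4, CSLA03 on 3, TBL15 on 2, and GH9B13 and EXPA20 on 1 each.

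Signals of different probe sets do not share a scale, so each gene is compared only with itself. Mean signals over the 18 arrays ran from 3.21 (EXLA3) to 7.54 (EXLB1) for expansin probe sets, from 2.97 (XTH21) to 7.54 (XTH32) for XTH, from 3.15 (CSLC12) to 7.23 (CSLD2) for CSL, from 3.06 (GH9B5) to 7.88 (GH9C2) for GH9 and from 2.94 (TBL34) to 8.88 (TBL26) for TBL. The distance between the highest and lowest of the 6 group means was greatest for EXPA8 (2.87), followed by TBL45 and XTH19 (both 2.39), CSLA01 (2.36) and EXLA1 (2.25). It was smallest for TBL30 (0.09), GH9B11 (0.094), EXPB5 (0.107), GH9B6 (0.11) and EXPA24 (0.115), none of which reached the filter. In whole leaves, fewer cells of a type and less RNA per cell cannot be told apart.

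The 3 MEA arrays of day 5 did not form one group. The first principal component over all tested probe sets, with 69.2% of the variance, put the 9 day 1 arrays at -42.5 to -32.9 and the 6 reference and EAA arrays of day 5 at 37.9 to 74.2. MEA day 5 replicate 2 fell at 67.6, replicates 1 and 3 at -26.6 and -37.5. The median SD was 0.337 in that group and 0.126 to 0.201 in the others. The control probe sets for actin gave a 3′ minus 5′ log2 difference, a sign of RNA quality, of 2.88 and 2.30 on MEA day 5 replicates 1 and 3 and 2.78 on EAA day 5 replicate 1, against 1.56 to 2.03 on the other arrays. For GAPDH the same difference was 1.06 on MEA day 5 replicate 1 and 0.79 on EAA day 5 replicate 1. On MEA day 5 replicate 3 it was 0.30, within the -0.13 to 0.50 of the other arrays. MEA day 5 results are given with and without arrays of that group, and for EAA day 5 replicate 1 the value without it is given where a named value moved by over 1.5 times. Whether samples were exchanged was not tested, and it bears on every MEA value of day 5. The leaf gene RCA, for Rubisco activase, read 13.32 to 14.02 on every array, and the root gene PYK10 stayed at 2.95 to 3.97; each was the one gene of its list with a named probe set. The trichome regulators TRY and GIS, 2 of 3 listed trichome genes, had higher means on day 5. TRY averaged 3.83 on reference day 1 and 6.22 on reference day 5 (4.49 and 4.96 with EAA, where the days overlap). GIS averaged 5.89 and 8.21 (6.20 and 7.74 with EAA). With MEA the days overlapped for both genes, with means of 3.90 and 4.85 for TRY and 6.36 and 6.65 for GIS. Their part in the changes with time below was not tested.

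**Figure D1:**
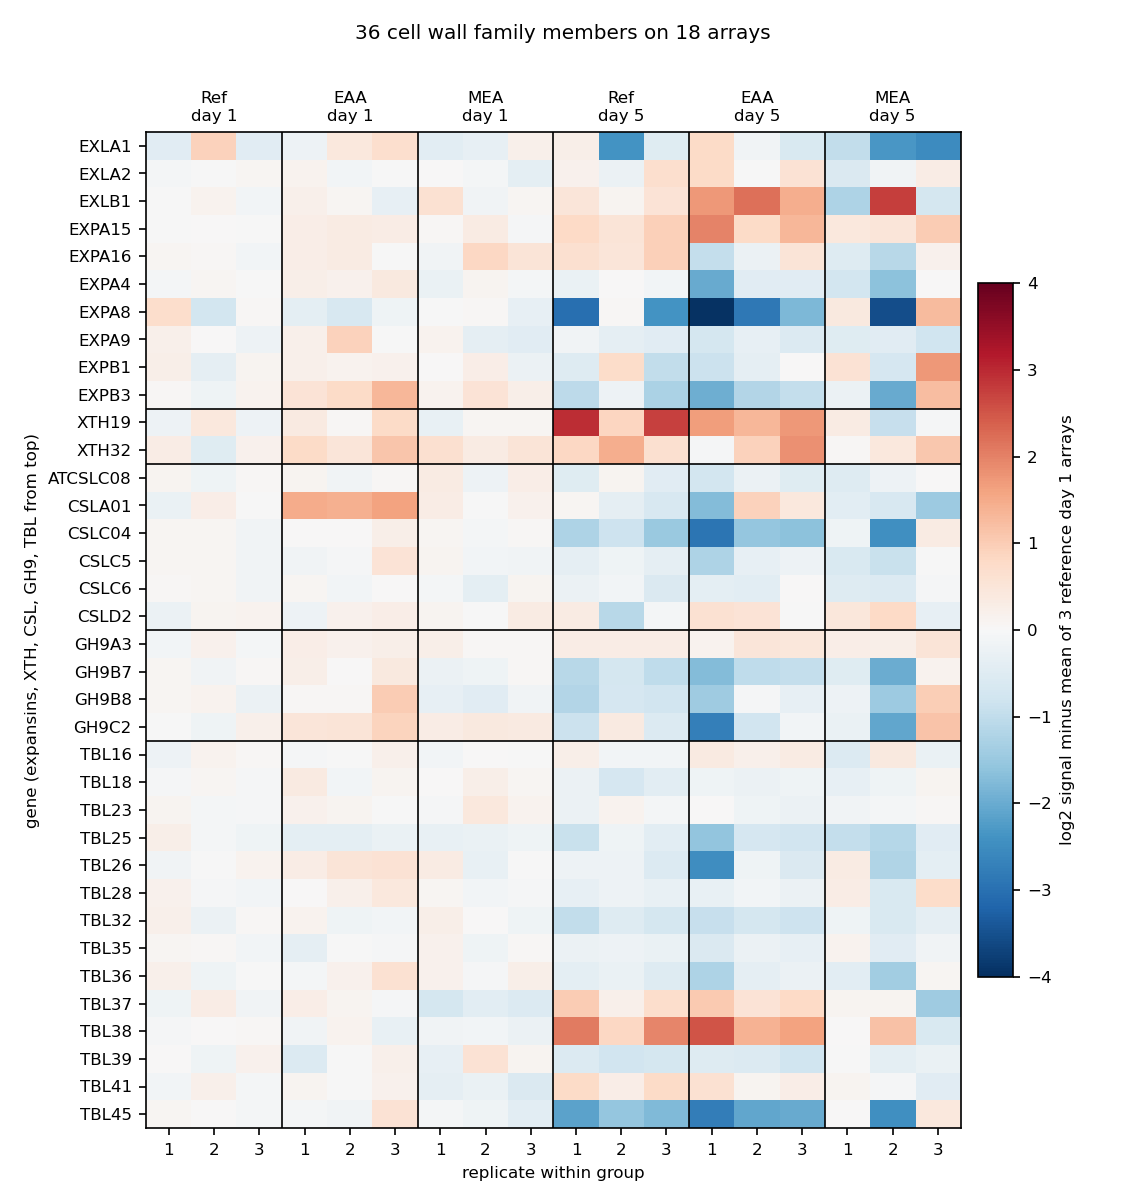
Log2 signal of the 36 tested members (rows, grouped as expansins, XTH, CSL, GH9 and TBL) on the 18 arrays (columns, by group and replicate), minus the mean of the 3 reference day 1 arrays; red is higher, blue lower. The MEA day 5 columns differ from each other more than those of any other group, and CSLA01 stands out in the 3 EAA day 1 columns.

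Most calls came with time. From day 1 to day 5 the reference leaves gained XTH19 and TBL38 and lost TBL45, and EAA leaves did the same. Called lower in EAA, among others, were CSLA01, CSLC04, CSLC5, GH9B7, GH9C2, EXPB3, EXPA4 and EXPA9. The calls of CSLC5, GH9C2 and EXPA4 were lost without EAA day 5 replicate 1. On reference day 5 all arrays of CSLC04, GH9B7 and EXPB3 were also below those of day 1. No member passed the test of a difference between the time courses. In the reference 8 of the 36 tested members passed an adjusted p under 0.05 (limma with Benjamini-Hochberg adjustment over all 13648 tested probe sets), 4 higher and 4 lower on day 5, where 30.9% of all tested probe sets passed, 14.1% higher and 16.9% lower. In EAA 17 passed, 4 higher and 13 lower, where 36.5% of all passed, 15.7% higher and 20.8% lower. The median member difference was -0.29 in the reference and -0.46 in EAA, beside -0.0092 and -0.022 over all tested probe sets. With MEA no member passed and 6 had an unadjusted p under 0.05, where 3.92% of all passed.

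The reference and EAA time courses share no arrays. The 5 members that passed in both, EXPA15, XTH19, TBL32, TBL38 and TBL45, moved the same way in each. They are 5 of the 8 reference members and 5 of the 17 EAA members. The share of all tested probe sets that passed in both was not counted, so this overlap is not shown to be particular to the members. No member passed the test of the difference between the 2 time courses, where 1 of the 36 had an unadjusted p under 0.05 and 0.00733% of all probe sets passed. The members that passed only in EAA are therefore not shown in this fit to behave otherwise in the reference. The members with the smallest p were EXPA16 (-1.12), EXPA4 (-1.11), CSLA01 (-1.35), TBL26 (-1.22) and EXPA9 (-0.57), each at an adjusted p of 0.996 (limma). Without EAA day 5 replicate 1 the values were -0.60 for EXPA4, -0.55 for CSLA01 and -0.51 for TBL26.

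XTH19 (AT4G30290), which cuts and rejoins xyloglucan, gave the strongest rise in the reference. Its log2 signal was 3.77, 4.39 and 3.75 on the reference arrays of day 1 and 6.92, 4.82 and 6.72 on those of day 5. In EAA it was 4.33, 4.03 and 4.75 on day 1 and 5.65, 5.30 and 5.71 on day 5. In both cases every day 5 array lay above every day 1 array, and reference day 5 replicate 2 was the lowest of its group. The rise was 2.18 in the reference (SE 0.44, 4.54-fold, adjusted p = 0.00181, limma) and 1.18 in EAA (SE 0.44, 2.27-fold, adjusted p = 0.0448, limma). The reference mean of day 1, 3.97, was under the filter value, so the size of this rise is uncertain. The reference rise passed without any one array, and the EAA rise lost its call whichever of its 6 arrays was left out (adjusted p of 0.0559 to 0.136).

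XTH32, from the small subgroup of XTH enzymes with xyloglucan hydrolase activity, was 7.23, 6.44 and 7.12 on reference day 1 and 7.75, 8.39 and 7.57 on reference day 5. The groups did not overlap, but the difference of 0.97 (SE 0.39) missed the threshold (adjusted p = 0.0696, limma). The EAA difference was 0.11 (SE 0.39), and 0.58 without EAA day 5 replicate 1.

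Among the expansins 1 passed in the reference and 5 in EAA, of 10 tested. EXPA15, an alpha-expansin, was 4.64, 4.66 and 4.63 on reference day 1 and 5.43, 5.17 and 5.59 on reference day 5. With EAA it was 4.92, 4.98 and 4.93 on day 1 and 6.64, 5.42 and 5.98 on day 5. It rose by 0.75 in the reference (SE 0.24, adjusted p = 0.0248, limma) and by 1.07 in EAA (SE 0.24, adjusted p = 0.00365, limma), with no overlap between days.

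EXLB1 (AT4G17030), an expansin-like protein with the expansin domains and no loosening activity established for it, rose in EAA. It was 7.31, 7.19 and 6.79 on EAA day 1 and 8.86, 9.32 and 8.56 on EAA day 5, a gain of 1.82 (SE 0.68, adjusted p = 0.0467, limma). In the reference it was 7.10, 7.24 and 6.99 on day 1 and 7.58, 7.22 and 7.64 on day 5, which overlap. Its EAA rise lost the call whichever of the 6 arrays was left out (adjusted p of 0.0621 to 0.128). Its SE in this fit includes the spread of the MEA day 5 arrays, and without that group it was 0.22 (adjusted p = 9.11e-06).

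EXPB3, a beta-expansin, was 6.75, 6.99 and 7.55 on EAA day 1 and 4.26, 5.04 and 5.27 on EAA day 5. It fell by 2.24 (SE 0.56, 4.71-fold, adjusted p = 0.00729, limma), with all day 5 arrays below all day 1 arrays. EXPA4 fell by 1.24 in EAA and EXPA9 by 0.89 (adjusted p of 0.02 and 0.00621, limma), the latter to a mean under the filter value, so its size is uncertain. The EXPA4 fall shrank to 0.72 and no longer passed without EAA day 5 replicate 1, the array with the high actin 3′ reading; the part of RNA quality in it was not tested. EXPA8, singled out after its values were seen because it varied most, was 8.32, 6.90 and 7.66 on reference day 1 and 4.62, 7.67 and 5.25 on reference day 5. In EAA it was 7.25, 7.0 and 7.46 and then 3.68, 4.76 and 5.83. Its differences of -1.78 (SE 0.98) and -2.48 (SE 0.98) missed the threshold with all arrays (adjusted p of 0.179 and 0.0591, limma).

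Of the 6 tested CSL members none passed in the reference, and CSLC04, CSLC5 and CSLA01 fell in EAA. CSLC04, a synthase of the xyloglucan backbone, was 7.70, 7.72 and 7.92 on EAA day 1 and 4.76, 6.14 and 6.05 on EAA day 5. It fell by 2.13 (SE 0.52, 4.38-fold, adjusted p = 0.0061, limma). Its reference arrays were also lower on day 5, at 6.45, 6.87 and 6.22 against 7.77, 7.76 and 7.55, a difference of -1.18 (SE 0.52) that missed the threshold (adjusted p = 0.0938, limma). CSLC5, of the same subfamily, fell by 0.71 in EAA (adjusted p = 0.0443, limma), and by 0.39 without EAA day 5 replicate 1 (adjusted p = 0.229). CSLA01, from the subfamily of mannan synthases, fell by 1.65 in EAA (SE 0.48, adjusted p = 0.0149, limma) from the high day 1 signals described below. ATCSLC08, CSLC6 and CSLD2, the last needed for root hair growth, did not pass in either group.

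GH9B7 and GH9C2, both secreted glucanases, passed in EAA among the 4 tested GH9 members, and none passed in the reference. GH9B7 was 8.52, 8.29 and 8.68 on EAA day 1 and 6.54, 7.26 and 7.34 on EAA day 5, a fall of 1.45 (SE 0.37, adjusted p = 0.00857, limma). The reference arrays were lower too, 7.18, 7.58 and 7.28 after 8.36, 8.15 and 8.35, but the difference of -0.94 missed the threshold (adjusted p = 0.0674, limma). GH9C2 was 8.51, 8.55 and 8.95 and then 5.31, 7.29 and 7.93, a fall of 1.83 (SE 0.66, adjusted p = 0.0425, limma). The lowest value came from EAA day 5 replicate 1, without which the fall was 1.06 (adjusted p = 0.22). GH9A3, one of the membrane-anchored class, differed by 0.30 in the reference (adjusted p = 0.066, limma).

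The TBL family split in both directions. TBL38 (AT1G29050), described as acting on acetylated pectin, was 7.43, 7.49 and 7.52 on reference day 1 and 9.57, 8.31 and 9.42 on reference day 5. On the EAA arrays it was 7.34, 7.63 and 7.18 and then 10.00, 8.88 and 9.10. It rose by 1.62 in the reference (SE 0.39, 3.07-fold, adjusted p = 0.00628, limma) and by 1.94 in EAA (SE 0.39, 3.85-fold, adjusted p = 0.00224, limma). TBL45 (AT2G30010) went the other way, from 5.96, 5.90 and 5.83 to 3.77, 4.34 and 4.13 in the reference and from 5.82, 5.74 and 6.47 to 3.13, 3.83 and 3.89 in EAA. It fell by 1.82 (SE 0.51, adjusted p = 0.0142, limma) and by 2.39 (SE 0.51, adjusted p = 0.00301, limma). Neither gene had overlapping days, and the TBL45 signal on day 5 with EAA was under the filter value, so the size of its fall is uncertain.

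TBL32, an acetyltransferase of xylan, fell by 0.73 in the reference and by 0.78 in EAA (adjusted p of 0.00352 and 0.00256, limma). Both day 5 means were under the filter value, so the sizes are uncertain, and its probe set is of a kind that can also bind related transcripts. TBL25 and TBL26, acetyltransferases of mannan, fell in EAA by 0.65 and 1.54 (adjusted p of 0.0449 and 0.0172, limma). TBL26 read 9.40, 9.61 and 9.69 on EAA day 1 and 6.61, 8.95 and 8.54 on EAA day 5, and its fall was 0.83 (adjusted p = 0.0707) without replicate 1. The TBL25 fall was 0.36 without that array (adjusted p = 0.231). TBL36 fell by 0.84 in EAA (adjusted p = 0.0482, limma), and by 0.53 without it (adjusted p = 0.227). In the reference TBL41 rose by 0.59, TBL39 fell by 0.68 and TBL18 fell by 0.44 (adjusted p of 0.0225, 0.0274 and 0.0372, limma). TBL37 differed by 0.64 and 0.69 and passed in neither.

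**Figure D2:**
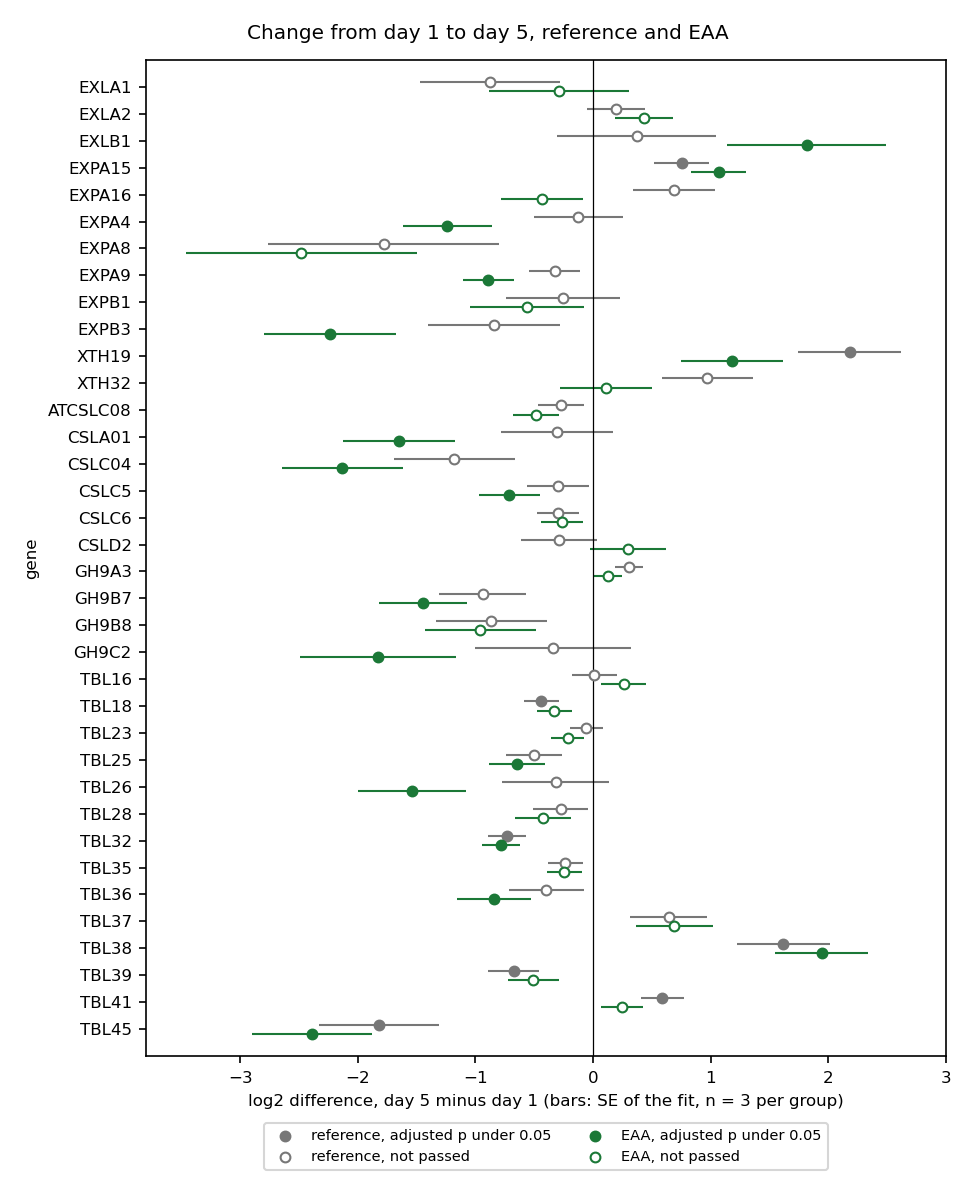
Log2 difference between day 5 and day 1 for the 36 tested members in the reference (grey) and EAA (green); bars are the SE of the fit, 3 arrays per group, and filled points have an adjusted p under 0.05. XTH19, TBL38 and EXPA15 lie to the right with filled points in both groups, TBL45 and TBL32 to the left.

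These counts depend on single arrays and on which arrays share the estimate of spread. Without reference day 1 replicate 1, reference day 1 replicate 3 or reference day 5 replicate 3 the reference count was 4. It was 5 without reference day 5 replicate 1. Without EAA day 1 replicate 3 or EAA day 5 replicate 1 the EAA count was 9. It was 11 without EAA day 1 replicate 2. Calls over all tested probe sets fell too. In the reference they went from 4220 with all arrays to 2892, 3001, 2923 and 3221, in the same order. In EAA they went from 4975 to 3281, 3359 and 3828. XTH19, TBL38 and TBL32 passed in the reference without any one array, while TBL45 was lost once (adjusted p = 0.0526, without reference day 5 replicate 1) and EXPA15, TBL41, TBL39 and TBL18 were lost 4 or 5 times in 6 (adjusted p up to 0.141). In EAA, TBL38, TBL32, TBL45, EXPA15, CSLC04, EXPA9, EXPB3, GH9B7 and CSLA01 passed without any one array, though the CSLA01 fall was 0.85 without EAA day 5 replicate 1 (adjusted p = 0.0388). GH9C2, CSLC5, TBL25, TBL26, TBL36 and EXPA4 each lost the call in 2 to 5 of 6 cases (adjusted p up to 0.231).

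With the MEA day 5 group left out of the fit, 16 members passed in the reference, where 43.9% of all tested probe sets did, and 22 in EAA, where 48% did. The differences are the same and the estimate of spread is not. The 8 added in the reference were EXPA8, EXPB3, XTH32, CSLC04, GH9A3, GH9B7, GH9B8 and TBL37, and the 5 added in EAA were EXPA8, ATCSLC08, GH9B8, TBL28 and TBL37. EXPA8 then passed in both (adjusted p of 0.0338 and 0.00499, limma). Passing in both were 11 members, all with the same sign in each, which is 11 of 16 and 11 of 22. Here too the share of all tested probe sets that passed in both was not counted.

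On day 1, EAA leaves carried more CSLA01 signal than the other leaves. CSLA01 (AT4G16590), from the mannan synthase subfamily, was 8.02, 7.96 and 8.15 with EAA, 6.25, 6.80 and 6.53 in the reference and 6.83, 6.51 and 6.69 with MEA. All 3 EAA arrays lay above all 6 others of that day. The difference from the reference was 1.52 (SE 0.48, 2.86-fold, unadjusted p = 0.006), which missed the threshold in the fit of all arrays (adjusted p = 0.9997, limma). In that fit no member passed, CSLA01 alone had an unadjusted p under 0.05, and 0.022% of all tested probe sets passed. By day 5 the EAA arrays read 4.79, 7.43 and 6.95 and the reference 6.60, 6.17 and 5.89, which overlap; the difference was 0.17, and 0.97 without EAA day 5 replicate 1.

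The spread in that fit comes from all 6 groups, and for CSLA01 the widest were EAA on day 5 (SD 1.41) and MEA on day 5 (SD 0.54), against 0.10 for EAA on day 1. Fitted on the 9 arrays of day 1 alone, the CSLA01 difference from the reference was 1.52 (SE 0.14, adjusted p = 0.000865, limma) and the difference from MEA 1.36 (SE 0.14, adjusted p = 0.003, limma). Also past the threshold against the reference in that fit were EXPB3, at 6.75, 6.99 and 7.55 against 6.26, 6.04 and 6.34 (0.88, SE 0.18, adjusted p = 0.0341), and GH9C2, at 8.51, 8.55 and 8.95 against 8.02, 7.87 and 8.24 (0.63, SE 0.13, adjusted p = 0.0295). With MEA on day 1 EXPB3 read 6.35, 6.77 and 6.45 and GH9C2 read 8.34, 8.43 and 8.39, also above all 3 reference arrays. The EAA and MEA arrays of EXPB3 overlap. CSLA01, EXPB3 and GH9C2, 3 members of 36, compare with 1.41% of all tested probe sets in the same fit. The 1 member against MEA compares with 0.784%. These members were singled out after their values were seen. Leaving out the MEA day 5 group alone did not bring CSLA01 past the threshold (adjusted p = 0.322).

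On EAA day 1 most tested members read slightly above the reference, none past the threshold in the fit of all arrays. Of the 36 tested members 29 had a difference above 0, with a median of 0.125, against a median of -0.021 over all tested probe sets. Some of these differences were close to 0, as for CSLC6 (0.00046). All members were read on the same arrays, so the count is a description. In 7 members all 3 EAA arrays lay above all 3 reference arrays, where this held for 7.86% of all tested probe sets: CSLA01, EXPB3, GH9C2, EXPA4, EXPA15, XTH32 and TBL26. In TBL25 they lay below. All 3 MEA arrays of day 1 also lay above all 3 reference arrays in EXPB3, GH9C2 and XTH32. The members with the smallest p after CSLA01 were XTH32 (0.79), GH9A3 (0.23), EXPA9 (0.36) and EXPB3 (0.88), none past the threshold. EAA and MEA share no arrays on day 1; there no member passed, 3 had an unadjusted p under 0.05 (CSLA01, EXPA9 and TBL41) and 0.022% of all passed. The differences were 1.36 for CSLA01, 0.59 for EXPA9, 0.48 for TBL41, 0.66 for TBL37 and 0.67 for GH9B8.

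On day 1 no member differed past the threshold between MEA and reference leaves. No other tested probe set passed in that fit either (0%, limma), and 1 member had an unadjusted p under 0.05. That was TBL41, at 4.13, 4.21 and 3.91 with MEA against 4.35, 4.69 and 4.38, a difference of -0.39 (SE 0.18, adjusted p = 0.9999, limma). TBL37 (-0.56), XTH32 (0.50), TBL23 (0.17) and EXPA16 (0.40) followed. The median member difference was 0.0073, beside -0.02 over all tested probe sets. The EAA and MEA comparisons of day 1 use the same 3 reference arrays, as do those of day 5.

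On day 5 the EXLB1 signal of EAA leaves exceeded that of reference leaves, and no member passed in the fit of all arrays. The EXLB1 signals were 8.86, 9.32 and 8.56 with EAA and 7.58, 7.22 and 7.64 in the reference, without overlap. The difference was 1.43 (SE 0.68, adjusted p = 0.664, limma). In that fit 3 members had an unadjusted p under 0.05 and 0% of all tested probe sets passed. Without the MEA day 5 group, whose EXLB1 values were 5.87, 9.86 and 6.39, the same difference had an SE of 0.22 and passed (adjusted p = 0.00446, limma), where 1.58% of all passed. The change of the EAA effect between the days, 1.44, also passed there (SE 0.31, adjusted p = 0.0435), where 0.718% of all did.

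The EXLB1 difference was 1.46 with EAA day 5 replicate 1 left out as well and 1.30 with reference day 5 replicate 2 left out as well, and passed in both (adjusted p of 0.0141 and 0.0176). Fitted to just the 9 day 5 arrays it did not pass (adjusted p = 0.9997); that fit holds the 3 MEA arrays again. Members with smaller p in the fit of all arrays were EXPA16, at 3.92, 4.65 and 5.38 with EAA against 5.51, 5.37 and 5.82 (-0.92, adjusted p = 0.572), EXPA15 (0.62) and EXPA4 (-0.85). The TBL25 difference was -0.50. Without EAA day 5 replicate 1 these were -0.55 for EXPA16, 0.30 for EXPA15, -0.33 for EXPA4 and -0.21 for TBL25. The median member difference was -0.12, beside -0.045 over all tested probe sets.

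**Figure D3:**
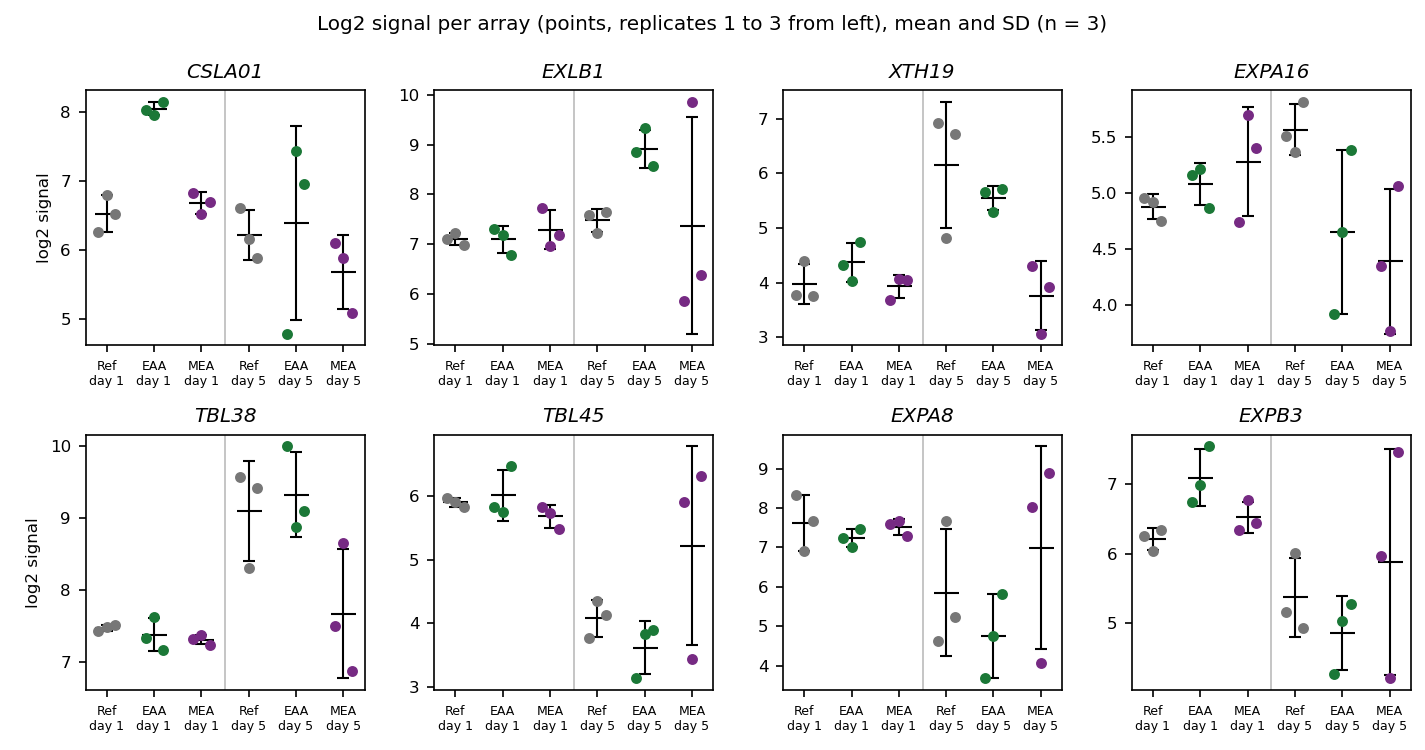
Log2 signal on each array (points, replicates 1 to 3 from left) with the group mean and SD (n = 3) for CSLA01, EXLB1, XTH19, EXPA16, TBL38, TBL45, EXPA8 and EXPB3. The CSLA01 arrays of EAA day 1 lie above the other day 1 arrays, EXLB1 is high on the EAA day 5 arrays and on 1 MEA day 5 array, and XTH19 is low on all 3 MEA day 5 arrays.

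With MEA on day 5, XTH19, TBL38, TBL41 and EXPA16 were lower than in the reference. These 4 of 36 members passed, all lower, where 10.7% of all tested probe sets passed and 6.65% were lower, and 7 members had an unadjusted p under 0.05. XTH19 was 4.31, 3.06 and 3.92 with MEA against 6.92, 4.82 and 6.72, with no overlap. The difference was -2.39 (SE 0.44, 5.24-fold, adjusted p = 0.00522, limma). The MEA mean, 3.76, was under the filter value, so the size of the difference is uncertain.

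TBL38 was 7.51, 8.65 and 6.88 with MEA against 9.57, 8.31 and 9.42 in the reference, a difference of -1.42 (SE 0.39, adjusted p = 0.0335, limma). Here the groups overlap, since MEA replicate 2 lay above reference replicate 2. TBL41 was 4.60, 4.44 and 4.03 against 5.23, 4.73 and 5.24 (-0.71, SE 0.18, adjusted p = 0.0238), and the alpha-expansin EXPA16 was 4.35, 3.77 and 5.06 against 5.51, 5.37 and 5.82 (-1.17, SE 0.35, adjusted p = 0.043). Neither pair of groups overlapped. TBL37, at 7.61, 7.62 and 6.07 against 8.53, 7.72 and 8.20, missed the threshold (-1.05, adjusted p = 0.0513).

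Against EAA on day 5, MEA leaves had less XTH19 and TBL38. EAA exceeded MEA by 1.79 in XTH19 (SE 0.44, adjusted p = 0.0408, limma) and by 1.65 in TBL38 (SE 0.39, adjusted p = 0.0377, limma), each with all EAA arrays above all MEA arrays. They were 2 of 36, where 3.85% of all tested probe sets passed. TBL37 (1.20), EXLA1 (1.96) and TBL45 (-1.60) missed the threshold, at adjusted p of 0.0505, 0.0662 and 0.0728. No member passed the test of a change in the MEA effect between the days (3 at an unadjusted p under 0.05, 0.103% of all passed), where XTH19 came nearest (-2.35, adjusted p = 0.12, limma), followed by EXPA16 (-1.57), TBL38 (-1.26), TBL45 (1.36) and XTH32 (-0.95). In the MEA time course the members with the smallest p were EXLA1 (-1.77, adjusted p = 0.109, limma), EXPA16 (-0.89), TBL25 (-0.60), TBL32 (-0.40) and EXPA15 (0.53).

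The MEA values of day 5 rest on arrays that disagree, and the members show it gene by gene. TBL45 read 5.91 and 6.32 on replicates 1 and 3, near its day 1 level of 5.48 to 5.83 with MEA, and 3.43 on replicate 2, near the other day 5 arrays at 3.13 to 4.34. EXPA8 read 8.03 and 8.88 on replicates 1 and 3 and 4.07 on replicate 2. EXLB1 did the reverse, with 5.87 and 6.39 on replicates 1 and 3, below all 9 day 1 arrays, and 9.86 on replicate 2, above every other array.

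The 27 members that passed for time in the reference or EAA without the MEA day 5 group were placed by whether each MEA array lay nearer the mean of the 9 day 1 arrays or that of the 6 reference and EAA day 5 arrays. On replicate 1 17 were nearer day 1, on replicate 3 21 were, and on replicate 2 5 were, with 22 nearer day 5. XTH19, TBL37 and TBL41 were nearer day 1 on all 3 MEA arrays, and CSLA01, EXPA9 and GH9A3 nearer day 5 on all 3. XTH19 was lower on each of the 3 MEA arrays than on every reference and EAA array of day 5.

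**Figure D4:**
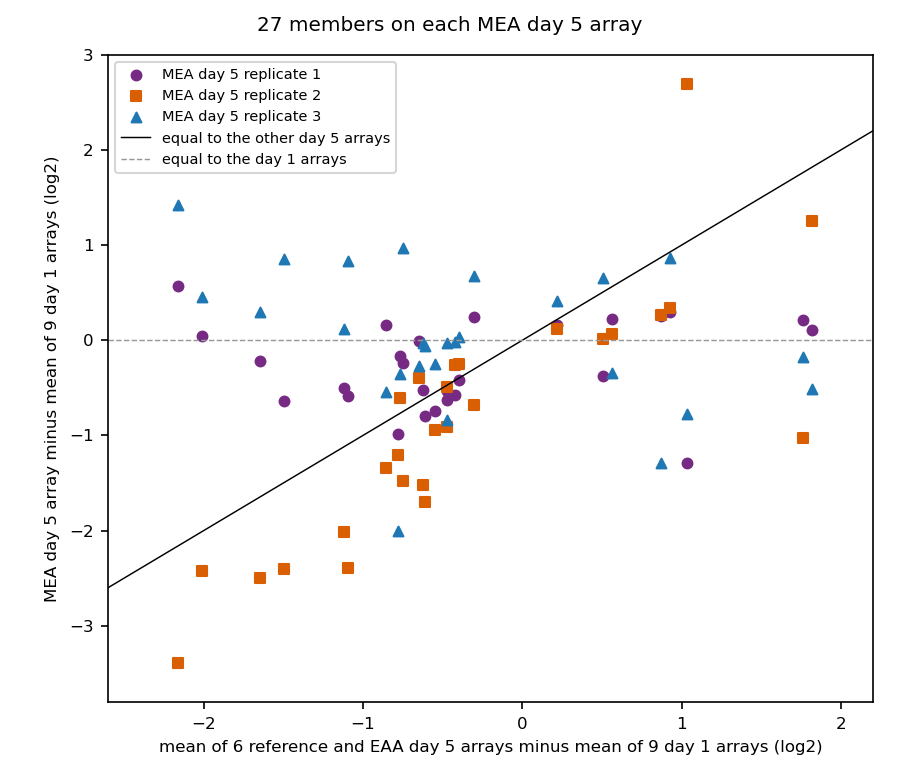
Each of 27 members on each MEA day 5 array: the array minus the mean of 9 day 1 arrays (vertical, log2) against the mean of 6 reference and EAA day 5 arrays minus the same mean (horizontal, log2). On replicate 2 (squares) 22 members lie nearer the solid line of equality with the other day 5 arrays and 5 nearer the dashed day 1 line. On replicate 1 (circles) 17 lie nearer the dashed line and 10 nearer the solid line. On replicate 3 (triangles) 21 lie nearer the dashed line and 6 nearer the solid line.

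Which MEA arrays entered the fit changed the calls. Without replicates 1 and 3, where the lone array is assumed to vary like the other groups, 5 members passed against the reference and 6.69% of all tested probe sets did: EXLB1 (2.38), GH9B7 (-1.04), EXPA4 (-1.52), EXPA16 (-1.80) and XTH19 (-3.09, adjusted p = 0.00577). The MEA time course then had 16 members past the threshold, 2 higher and 14 lower, where 37.9% of all passed, among them TBL45 (-2.24), CSLC04 (-2.48) and EXPB3 (-2.32). Without replicate 2, 15 members passed against the reference, 9 higher and 6 lower, where 40.2% of all did, with EXPA8 (2.61) and TBL45 (2.03) higher and EXLB1 (-1.35) and XTH19 (-2.04, adjusted p = 0.00194) lower. The members of these fits were singled out after their values were seen. Of the 4 called with all arrays XTH19 passed without any one array, TBL41 lost its call without reference replicate 1 or 3 or MEA replicate 3, and TBL38 without those or MEA replicate 1 (adjusted p up to 0.11 and 0.146). EXPA16 kept its call only without MEA replicate 3. The count was 1 without reference replicate 1 or 3 and 2 without MEA replicate 1 or 3. Over all tested probe sets 1456 passed with all arrays, 986 and 374 without reference replicate 1 or 3, and 393 and 557 without MEA replicate 1 or 3. Against EAA the member count was 0 without EAA replicate 1 or 3 or MEA replicate 1 or 3. Of all tested probe sets 526 passed there with all arrays, and 5, 0, 2 and 0 in those fits. Without MEA replicate 2 the member count against EAA was 16, where 43.2% of all passed. XTH19 also lost its call against EAA without EAA replicate 2, so that it passed only without MEA replicate 2 (adjusted p up to 0.139).

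Other wall genes were taken from a list of 150 names in the synthesis of cellulose, xyloglucan, xylan and pectin, in nucleotide sugar supply, and in wall proteins, sensors and regulators. Only 8 had a probe set under those names and 6 reached the filter, so the list says little about most of these pathways. With time, the wall sensors THE1 and FER and the cellulose organiser COB fell in the reference and in EAA, and EXGT-A3, an XTH gene under an older symbol, rose in both; IRX15-L, of xylan synthesis, fell in EAA. THE1, a receptor kinase that monitors the wall, was 6.99, 7.05 and 6.98 on reference day 1 and 5.18, 5.63 and 5.61 on reference day 5. It fell by 1.54 in the reference (adjusted p = 0.000136, limma) and by 1.47 in EAA, without overlap. COB, a membrane-anchored protein that orients cellulose deposition, fell by 1.02 and 1.38, and FER, a receptor kinase of the same family as THE1, by 0.72 and 0.77. EXGT-A3 rose by 0.83 and 1.13 (adjusted p of 0.0388 and 0.00776, limma), the first of which lost its call whichever of its 6 arrays was left out.

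On day 5 EXGT-A3 was lower with MEA, at 8.68, 9.86 and 8.27 against 9.93, 9.91 and 10.01 in the reference. The difference was -1.02 (adjusted p = 0.036, limma), and MEA replicate 2 was nearly level with the reference. Without MEA replicates 1 and 3 it was -0.096. No listed gene passed in the MEA time course, where THE1 came nearest (-0.81, adjusted p = 0.0507), nor in the other comparisons between treatments.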

How the data were processed

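Each sample was 1 array, and 18 arrays in 6 groups of 3 were used. The deposited values are log2 signals, judged from their range; MAS5 was the tool per the submitters' processing notes, without a version, and how they were normalized, scaled or logged is not stated there. The low end of the values is narrow for MAS5, so the summary method is uncertain, and with it the size of changes near the filter. The arrays limit precision by their number. Of 22810 probe sets 64 were controls, 13513 had 1 gene, 503 several and 8794 none in the platform annotation; symbols were updated from a RefSeq table (assembly TAIR10.1), which matched all 72 members. No build is named in the files, so no coordinates are given, and no sequences were used here.

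Values were used as deposited, without rescaling. limma 3.58.1 in R 4.3.3 fitted 1 mean per group (lmFit, eBayes with trend, 12 residual degrees of freedom) to 13648 probe sets, for 11 contrasts, with Benjamini-Hochberg adjustment within each. The fit was tested on simulated data with the same spread in every group, so that test does not cover the wide spread of the MEA day 5 arrays. At a simulated log2 difference of 0.5 it recovered 12 to 22% of changed probe sets, depending on the contrast. At a difference of 2 it recovered 88 to 100%. Plots used Python 3.11.15, pandas 2.3.3 and matplotlib 3.10.9. Differences are log2 with the SE of the fit.

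Named were all members past the threshold in a contrast (at most 20), or, with fewer than 5, the 5 with the smallest p, the ends of each family's range of means, and the 5 largest and 5 smallest ranges of group means. Members and gene lists were chosen with earlier results of these data known. Alternatives were median centring, quantile normalization, no filter, array weights, each array left out, a replicate block, and fits without MEA day 5 arrays or on 1 day; after the data were seen, fits also without EAA day 5 replicate 1 or reference day 5 replicate 2 were added. Replicate numbers come from the titles. Over all pairs, same-numbered arrays showed little common deviation (27 correlations, -0.441 to 0.433, median 0.023), beside -0.555 to 0.516, median -0.017, for differently numbered arrays. On day 1 the same-numbered correlations were small but mostly positive, at -0.061 to 0.165.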

Additional observations from a re-analysis of the deposited data

Results flagged for a closer look

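EXPA4, an alpha-expansin, lay above the reference on all 3 EAA arrays of day 1 and below it on all 3 of day 5. It read 7.06, 7.01 and 7.22 with EAA against 6.76, 6.91 and 6.81 on day 1, and 4.82, 6.37 and 6.38 against 6.56, 6.84 and 6.71 on day 5. The change of the EAA effect between the days was -1.11 (SE 0.54, unadjusted p = 0.0549, adjusted p = 0.996, limma), so the difference between the days did not pass its test. The lowest value came from EAA day 5 replicate 1, the array with an actin 3′ minus 5′ difference of 2.78, whose part was not tested; without that array the change was -0.60.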

How the results depend on the processing

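Limits first: 3 arrays a group, 36 members too dim to test, and a spread shared with the MEA day 5 arrays. Members called of 36 moved by over 1.5 times as follows. Without the MEA day 5 group they were 16 for time in the reference (43.9% of all tested probe sets passed). They were 1 for EAA against the reference on day 5 (1.58% of all) and 1 for the change of the EAA effect (0.718% of all). Array weights were lowest for MEA day 5 replicate 2, at 0.076, against 1.73 and 0.335 for replicates 1 and 3. With array weights, members called were 21 for time in the reference (7115 of all 13648 tested probe sets) and 6 for time in MEA (3233 of all). They were also 1 and 2 for EAA against the reference on days 1 and 5 (131 and 426 of all). For MEA on day 5 against the reference they were 16 (6015 of all). For EAA against MEA on days 1 and 5 they were 2 and 14 (120 and 6208 of all). For the changes of the EAA and MEA effects they were 1 and 9 (302 and 4492 of all). On the arrays of the day alone they were 3 and 1 for EAA on day 1 against the reference and against MEA (1.41% and 0.784% of all). For both MEA comparisons of day 5 they were 0 (0 of all). Without MEA day 5 replicates 1 and 3 they were 16 for time in MEA, 0 for EAA against MEA on day 5 and 3 for the change of the MEA effect. Without the MEA day 5 group and EAA day 5 replicate 1 there was 1 for EAA against the reference on day 5 (97 of all). With reference day 5 replicate 2 left out instead there were 16 for time in the reference (5968 of all). There were then 2 on day 5 (106 of all) and 1 for the change (84 of all). Leaving out 1 array gave 4 to 7 for time in the reference (2892 to 3766 of all), 9 to 16 in EAA (3281 to 4468) and 0 to 5 in MEA (111 to 1756). It gave 1 to 15 for MEA on day 5 against the reference (374 to 5489 of all) and 0 to 16 for EAA against MEA on day 5 (0 to 5897). For the change of the MEA effect it gave 0 to 9 (0 to 3104 of all), and 0 elsewhere. Median centring gave 8 and 13 members for time in the reference and EAA (4238 and 5156 of all). Quantile normalization gave 7 and 14 (4256 and 5140 of all). Direction turned, among other members, for TBL45 without MEA day 5 replicates 1 and 3 (EAA against MEA on day 5, 0.18; change of the MEA effect, -0.43) and for EXLB1, MEA against the reference on day 5 (-0.11 with all arrays, 2.38 without those replicates, -1.35 to 0.64 without 1 array); of the 36 members 13 turned without those replicates in MEA against the reference, among them GH9B7 (0.17 to -1.04), EXPA8 (1.15 to -1.78), TBL45 (1.14 to -0.65) and CSLC04 (0.41 to -1.29). Beyond the arrays and spread used, the cause was not tested.

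Arrays share only a replicate number; with it as a replicate block 8, 17 and 4 members passed for time in the reference, time in EAA and MEA on day 5 against the reference, and 1 in place of 2 for EAA against MEA on day 5 (TBL38 was lost).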

Other observations

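Next-door copies of 3 tested members stayed under the filter value on all 18 arrays, by gene order in the RefSeq table. XTH18, beside XTH19, read 2.83 to 3.59. EXLA3, beside EXLA1, read 2.99 to 3.50, and TBL30, beside TBL28, read 3.46 to 3.73. Their probe sets do not share a scale with those of the neighbours, so levels within a pair are not compared, and no test was made.

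Family genes known to the tables only by another symbol were outside the rule. EXGT-A3 is XTH27, AT4G30380 is EXLB2 (mean log2 signal 3.0033, under the filter) and AT2G31110 is TBL40 (4.97 and 5.79 on its probe sets).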
